A study of Mus musculus with 6 samples.

Results

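Cells of the S1 and S2 segments of the proximal tubule (S1/S2 cells) were described here in single-cell RNA counts from obstructed mouse kidneys. They were the barcodes with at least 200 genes and at most 50% mitochondrially encoded unique molecular identifiers (UMIs, which count captured RNA molecules) that held at least 3 UMIs of Slc34a1, Slc5a2 and Slc5a12 together. They also had to hold fewer than 2 UMIs of the S3 segment genes Slc7a13 and Slc22a30, fewer than 2 of the injury gene Havcr1, and at most 5 of the macrophage genes C1qa, C1qb and C1qc. The rule found 1216 cells among 25978 deposited barcodes, or among 23578 that passed the gene and mitochondrial limits (kept barcodes). By library there were 247, 256 and 122 S1/S2 cells with SH045 and 353, 157 and 81 with Vehicle.

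There were 6 libraries, each from 1 kidney of a C57BL/6 mouse 7 days after unilateral ureteral obstruction (UUO), an operation that ties off 1 ureter and leads to tubule injury, inflammation and fibrosis in that kidney. SH045 libraries 1 to 3 came from mice given the compound SH045, which the series title places under TRPC6 inhibition, and Vehicle libraries 1 to 3 from mice given its vehicle. All 6 kidneys were thus obstructed, and no uninjured kidney was analysed here. The labels used here do not state the dose, the route, the time of dosing or the sex of the mice; Y-linked Ddx3y was read in all 6 libraries of S1/S2 cells.

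The proximal tubule takes back most of the glucose, phosphate, amino acids and filtered protein that pass the glomerulus, and its early segments carry the bulk of that work with sodium-coupled carriers in a brush border. It lives on fatty acid oxidation and other mitochondrial fuel use, makes glucose, and breaks down amino acids and xenobiotics. When the tubule is injured, cells lose these programmes and switch on Havcr1 (kidney injury molecule 1), keratins, osteopontin and adhesion molecules, so cells that keep the carriers beside those that have switched are a way to look at both states in the same kidney.

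The carriers that chose the cells were read as follows, as a description. Slc34a1, the sodium-phosphate carrier NaPi-IIa, was at 2947, 2501 and 1754 UMIs per 1000000 UMIs of the class (CPM) with SH045 and at 2571, 2523 and 1705 CPM with Vehicle. Slc5a2, the glucose carrier SGLT2, was at 718, 678 and 548 CPM with SH045 and at 623, 798 and 659 CPM with Vehicle. Slc5a12, a lactate carrier, was at 396, 281 and 325 CPM with SH045 and at 325, 253 and 175 CPM with Vehicle. All 3 carriers overlapped between the groups. Havcr1 was at 9.41 to 23.2 CPM over the libraries, with 138 cells holding the 1 UMI that the rule allowed. The S3 genes Slc7a13 and Slc22a30 were at 0 to 11 and 10.5 to 29.8 CPM. Of the macrophage genes, C1qa was at 13.1 to 30.8 CPM, C1qb at 21.2 to 66.6 CPM and C1qc at 17.4 to 39.7 CPM, and C1qb and C1qc were lower in every SH045 library than in any Vehicle library. The rule limits these genes, so that order carries no test. The share of cells with a C1qc UMI overlapped, with 18.8% in SH045 2 and 18.1% in Vehicle 1. No C1q UMI was held by 687 cells.

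The label was checked against genes outside the rule. Miox, an inositol-degrading enzyme of the proximal tubule, had a UMI in 78.6% of S1/S2 cells and in 2.33% of 901 T cells, which should lack it (T cells were kept barcodes with at least 2 UMIs of Cd3d, Cd3e and Cd3g, C1q genes within the same limit, and none of the carriers or Havcr1). Spp2, a secreted phosphoprotein of the early proximal tubule, had a UMI in 57.6% of S1/S2 cells and in 0.555% of T cells. Lrp2 (megalin), the receptor that takes up filtered protein, had one in 88.7% of S1/S2 cells and in 2.66% of T cells. Median depth was 3906 to 9488 UMIs per S1/S2 cell and 2978 to 5255.5 UMIs per T cell, by library. The limit on carriers removes T cells with tubule RNA, so these shares understate the background. Without the limits on carriers and Havcr1 there were 1039 T cells, of which 30 were also S1/S2 cells, and Miox had a UMI in 6.54% of them, Spp2 in 2.02% and Lrp2 in 7.12%. With every cell thinned to 2000 UMIs the shares were 63.5% of S1/S2 cells and 4.64% of these T cells for Miox, 41.5% and 1.45% for Spp2, and 68.6% and 4.57% for Lrp2. These markers thus set S1/S2 cells apart from T cells. The comparison with T cells cannot tell the S1 and S2 segments from S3. Kap, an androgen-regulated gene with its highest level in the S3 segment, was a point of overlap. It was at 549 to 4175 CPM in S1/S2 cells and at 18882 to 44783 CPM in the 455 cells chosen by the S3 genes. A Kap UMI was present in 41.4% of S1/S2 cells and in 17.2% of T cells.

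Cells just inside and just outside the carrier threshold varied widely by library. Of the 93 S1/S2 cells with exactly 3 carrier UMIs 36 came from Vehicle 1, and 154 barcodes with 2 carrier UMIs were otherwise alike. By library, Miox was at 44.1 to 2322 CPM inside that edge (median 284, and 884 in the pooled counts) and at 27.9 to 1434 CPM outside it (median 161, pooled 455). Spp2 was at 33.6 to 185 CPM inside (median 75.7) and at 0 to 186 CPM outside (median 38.7). Lyz2, a macrophage and granulocyte gene, was at 0 to 2058 CPM inside (median 72.0) and at 120 to 4281 CPM outside (median 767), and Cd74, the invariant chain of antigen presentation, at 1259 to 12407 CPM inside (median 2976) and 1718 to 15825 CPM outside (median 6337). All 4 ranges overlapped across the edge. Median depth was 3565 UMIs inside and 4397.5 outside. Most S1/S2 cells (754, or 62.0%) held more than 10 carrier UMIs.

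RNA of other cell types was present at levels that differed by library. Summed over their marker lists, dendritic cell genes reached 1.39 to 11.4 CPM with SH045 and 15.7 to 34.3 CPM with Vehicle. Most of the Vehicle sum was Cd209a, which is reported again below. Cd209a averaged 0.154 CPM with SH045 and 18.7 CPM with Vehicle, beside list means of 5.28 and 23.1 CPM. T and NK cell genes reached 26.8 to 123 CPM with SH045 and 69.9 to 106 CPM with Vehicle, and thick ascending limb genes 7.07 to 188 CPM with SH045 and 26.1 to 94.6 CPM with Vehicle. B and plasma cell genes ran to 2345 CPM in SH045 1 and 7283 CPM in Vehicle 3, and red blood cell genes to 3558 CPM in SH045 2 and 2296 CPM in Vehicle 1, with 11.6 to 66.4 CPM in the other 4 libraries. The part of these cell types in the results below was not tested, except where values are given. Barcodes that share a sequence across libraries were few: 209 sequences occurred in more than 1 library, 32 S1/S2 cells carried one, and 6 sequences were shared by S1/S2 cells of different libraries. Doublets were not removed in the main analysis; 74 S1/S2 cells were among the 5% highest Scrublet doublet scores of their library.

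The share of S1/S2 cells among the kept barcodes overlapped between the groups. With SH045 their share was 7.22%, 6.42% and 3.37%, and with Vehicle it was 8.52%, 3.68% and 1.96%, which averaged 5.67 ± 2.04% with SH045 and 4.72 ± 3.40% with Vehicle (SD, n = 3 each). The highest and the lowest library were both Vehicle, the groups overlapped, and an exact permutation test (two-sided) gave p = 0.8, where 3 against 3 libraries cannot go below 0.1. The log2 ratio of the means was 0.27, and it turned to -0.10 without Vehicle 3 and reached 1.01 without Vehicle 1. Per Havcr1-positive cell there were 1.16, 1.45 and 0.560 S1/S2 cells with SH045 and 1.80, 0.471 and 0.460 with Vehicle. Shares of dissociated cells cannot tell a change in number from a change in how well cells came out of the tissue.

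A part of the tubule barcodes fell outside the mitochondrial limit. Of the barcodes that reached the carrier sum, 16.3%, 24.0% and 17.5% with SH045 and 3.29%, 14.9% and 15.5% with Vehicle had more than 50% mitochondrial UMIs. The groups did not overlap, at 19.3 ± 4.15% with SH045 and 11.2 ± 6.89% with Vehicle (SD, n = 3 each), and the exact two-sided permutation test gave p = 0.1, the smallest it can give here. Among the S1/S2 cells themselves, the median mitochondrial share was 14.0%, 14.0% and 10.1% with SH045 and 7.02%, 12.9% and 9.30% with Vehicle, which overlapped.

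**Figure D1:**
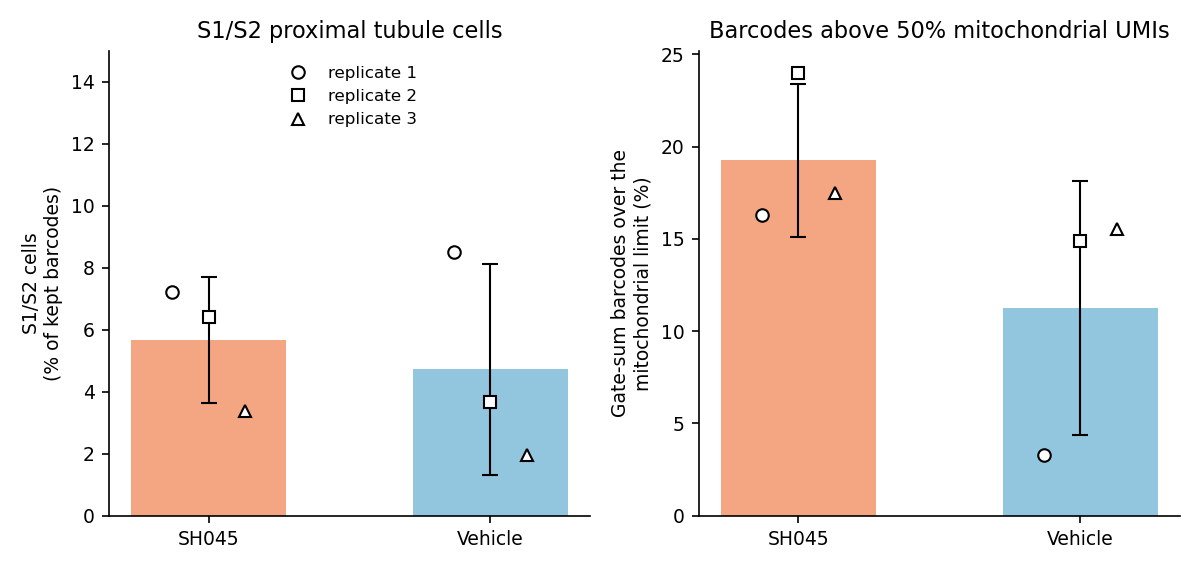
Share of kept barcodes that were S1/S2 cells (left) and share of barcodes with the carrier sum that lay above the mitochondrial limit (right), in percent. Bars are means of 3 libraries, error bars are SDs and symbols are single libraries; Vehicle 1 had the highest share on the left (8.52%) and the lowest on the right (3.29%).

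Library Vehicle 1 stood apart from the other 5 and is named beside the results it moves. Of 3094 genes with a mean of at least 50 CPM in S1/S2 cells, it had the highest or the lowest value in 53.5%, against 16.5% to 38.1% for each of the others. Miox was at 801, 726 and 351 CPM with SH045 and at 2127, 999 and 575 CPM with Vehicle, with the highest value in Vehicle 1. The summed level of 78 genes of amino acid, vitamin and xenobiotic metabolism was 17390, 18346 and 12557 CPM with SH045 and 29323, 16477 and 11851 CPM with Vehicle. Vehicle 1 also had the lowest level of the adhesion molecule Vcam1 (40.3 CPM, against 124 to 202 CPM in the other libraries) and the lowest of Spp1, which encodes osteopontin (1684 CPM, against 2280 to 3760 CPM). Its S1/S2 cells had the lowest median depth (3906 UMIs) and median mitochondrial share, and it held 230 of the 455 cells chosen by the S3 genes. Whole libraries held 21186872 to 32256602 UMIs, and Vehicle 1 had 21271281 of them, close to the lowest.

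Between SH045 and Vehicle, 2 genes in S1/S2 cells passed the test, both of them lower with SH045. UMIs were summed over the S1/S2 cells of each library (765235 to 2165715 UMIs) and tested with edgeR's quasi-likelihood test, adjusted by Benjamini-Hochberg over 9837 genes. At an adjusted p under 0.05, 0 genes rose and 2 fell, which is 0.0203% of the genes tested; 735 genes (7.47%) had an unadjusted p under 0.05, 347 of them upward (3.53%) and 388 downward (3.94%), and DESeq2 called 14 genes (5 higher, 9 lower). On simulated counts of the same depth and spread, the test found 89 of 100 genes changed 4-fold and 37 of 100 changed 2-fold. Most 2-fold changes were thus missed even there. These genes were changed in the same simulated set, where far more genes were called than here. In the real data larger changes missed the threshold, such as Cyp4a14 (log2 change 4.67, adjusted p = 0.0515, edgeR) and Ccl17 (-3.55, adjusted p = 0.0643, edgeR). The simulated rates therefore cannot give the share of real 4-fold changes that would be called. The count rested on single libraries: it was 0 without SH045 1 or without SH045 2, 1 without Vehicle 2, 10 without Vehicle 3 and 15 without Vehicle 1. The libraries of the groups did not overlap for 1370 genes (13.9%), 874 of them higher with SH045 (8.88%) and 496 lower (5.04%).

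Both genes that fell are known as genes of dendritic cells and macrophages. Cd209a, a lectin receptor of monocyte-derived dendritic cells, had 0, 1 and 0 UMIs in the S1/S2 cells of the SH045 libraries and 26, 46 and 12 UMIs in those of the Vehicle libraries. Mgl2, a galactose-binding lectin of the same cells, had 8, 5 and 5 UMIs with SH045 and 130, 53 and 25 with Vehicle. The groups did not overlap for either. The log2 changes were -6.14 ± 0.72 for Cd209a and -3.66 ± 0.42 for Mgl2 (SE; adjusted p = 0.0040 for both, edgeR's quasi-likelihood test). For Cd209a the plain ratio of pooled counts was 0.0105, with an exact 95% interval of 0.00026 to 0.0600 that covers counting error only.

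These UMIs sat in few cells. A single S1/S2 cell held 12 of the 26 Cd209a UMIs in Vehicle 1, 37 of 46 in Vehicle 2 and 8 of 12 in Vehicle 3. For Mgl2 a single cell held 90 of 130, 43 of 53 and 13 of 25 UMIs in the 3 Vehicle libraries, against 2 of 8, 1 of 5 and 1 of 5 with SH045. Without the highest cell of each library, Mgl2 was at 3.27, 1.85 and 4.04 CPM with SH045 and at 20.9, 5.82 and 15.7 CPM with Vehicle, still without overlap, and Cd209a was at 0, 0 and 0 CPM with SH045 and at 7.32, 5.24 and 5.23 CPM with Vehicle. Any Mgl2 UMI was held by 2.83%, 1.95% and 4.10% of S1/S2 cells with SH045 and by 6.23%, 6.37% and 16.0% with Vehicle.

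The same order of the groups was read in T cells, which are not known to make these lectins. Cd209a was at 11.5, 1.58 and 2.75 CPM in T cells of the SH045 libraries and at 130, 43.7 and 56.4 CPM in T cells of the Vehicle libraries. Mgl2 was at 5.25, 7.92 and 11 CPM in T cells with SH045 and at 77.7, 43.7 and 99.2 CPM with Vehicle. In Havcr1-positive cells Mgl2 was at 3.67, 5.62 and 4.15 CPM with SH045 and at 9.07, 23.2 and 10.1 CPM with Vehicle. Neither gene was called without SH045 1 (adjusted p = 0.0887 for both, edgeR) or without SH045 2, and Cd209a was not called without Vehicle 2 (adjusted p = 0.0836, edgeR). With at least 6 carrier UMIs required of each cell, Mgl2 was not called (adjusted p = 0.122, edgeR), and with no C1q UMI allowed neither gene reached the test, Vehicle 1 then holding 5 of its 26 Cd209a UMIs and 9 of its 130 Mgl2 UMIs.

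**Figure D2:**
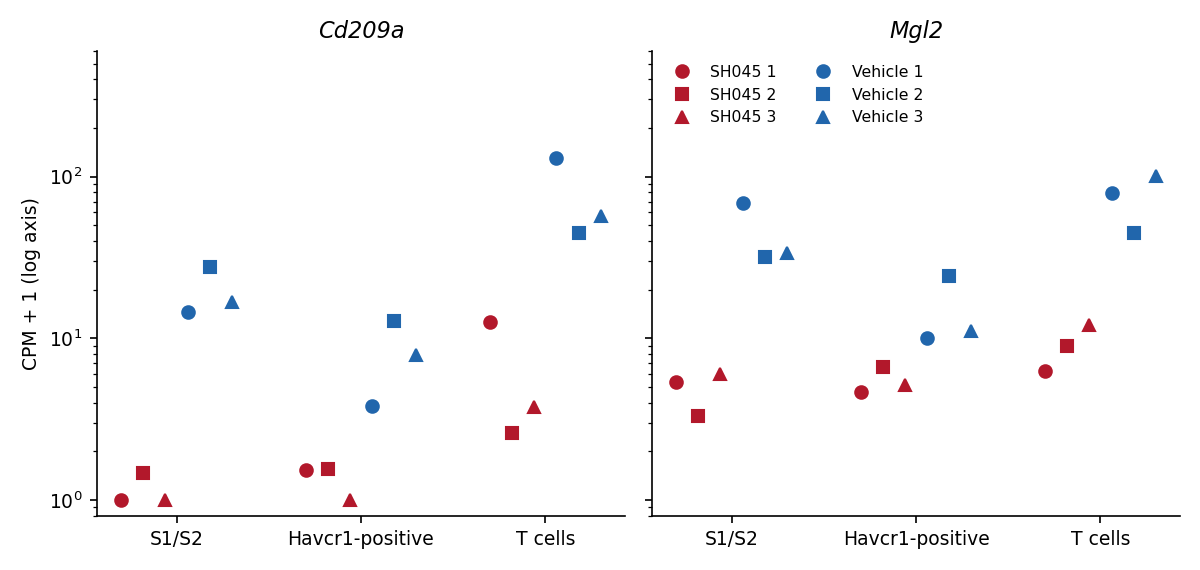
CPM + 1 (log axis) of Cd209a (left) and Mgl2 (right) in S1/S2 cells, Havcr1-positive cells and T cells of each library, with SH045 libraries in red and Vehicle libraries in blue. In each of the 3 classes the SH045 libraries lie below the Vehicle libraries for both genes.

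Further genes of myeloid cells missed the threshold with the same order of the groups. They were picked after their values were seen, as were the tubule genes Alpl, Trabd2b and Hsd11b2 and the chemokine Cxcl11 below. Wfdc17, a secreted inhibitor made by macrophages, was at 19.6, 16.6 and 21.2 CPM with SH045 and at 59.6, 40.7 and 49.7 CPM with Vehicle (log2 change -1.47, adjusted p = 0.0515, edgeR). Fcer1g, the signalling chain of Fc receptors, was at 31.6, 32.3 and 37.4 CPM with SH045 and at 80.5, 55.3 and 90.2 CPM with Vehicle (log2 change -1.21, adjusted p = 0.0772, edgeR). The chemokine Ccl17 of dendritic cells was at 3.27, 1.85 and 1.01 CPM with SH045 and at 40.3, 21.5 and 9.15 CPM with Vehicle (log2 change -3.55, adjusted p = 0.0643, edgeR), and in Vehicle 3 a single cell held all 7 of its UMIs. Of the 10 macrophage and monocyte markers 0 were called, 7 lay below 0 and 5 had an unadjusted p under 0.05 downward, with a median log2 change of -0.70. Their summed level did not share that order. It overlapped, at 1319 to 1620 CPM with SH045 (mean 1456) and 1155 to 1632 CPM with Vehicle (mean 1352). Apoe was among the 3 markers above 0 (log2 change 0.29, adjusted p = 0.731, edgeR). In S1/S2 cells Apoe was at 1024, 1162 and 1406 CPM with SH045 and at 726, 962 and 1130 CPM with Vehicle, with overlap. The sum without Apoe was not tested. Whether these genes were read inside S1/S2 cells or came with other cells or free RNA was not tested beyond the values given.

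Among genes of fatty acid handling, Cyp4a14 and Cyp4a10 lay higher in every SH045 library without passing the test, while 36 of 50 tested genes of fatty acid oxidation and the peroxisome were below 0. Cyp4a14, a fatty acid omega-hydroxylase, had 71, 58 and 9 UMIs (38.7, 26.8 and 9.09 CPM) with SH045 and 3, 1 and 0 UMIs (1.57, 0.582 and 0 CPM) with Vehicle. It was read in 10.1%, 8.20% and 2.46% of S1/S2 cells with SH045 and in 0.850%, 0.637% and 0% with Vehicle, and T cells held 0 UMIs of it. In the 455 cells chosen by the S3 genes it was at 353, 123 and 96.0 CPM with SH045 and at 11.3, 3.86 and 23.8 CPM with Vehicle. The log2 change was 4.67 ± 0.70 (SE; adjusted p = 0.0515, edgeR), with the lowest SH045 library still above the highest Vehicle library. Cyp4a10, a close paralogue that could share reads with it, was at 39.2, 29.1 and 15.2 CPM with SH045 and at 12.0, 6.99 and 7.84 CPM with Vehicle (log2 change 1.57, adjusted p = 0.295, edgeR). Both are known targets of the fatty acid receptor PPAR-alpha in mouse; its own gene Ppara was at 16.3, 16.6 and 24.2 CPM with SH045 and at 35.0, 18.6 and 20.9 CPM with Vehicle, which overlapped. Of all genes tested 50.2% lay below 0. Of the 50 genes 0 were called. Their median log2 change was -0.10, beside -0.0018 over all genes tested. Without Vehicle 1 the median of the 50 was 0.00019, so their downward lean rested on that library. The libraries lay apart upward for 6 and downward for 2, near the shares of all genes tested that did so (8.88% upward and 5.04% downward).

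No tested carrier for phosphate, glucose or amino acids passed the test; Slc34a1, Slc5a2 and Slc5a12, which chose the cells, were left out of it. Of 12 tested genes of glucose and phosphate transport 0 were called and 0 lay apart between the groups, with a median log2 change of -0.14. Of 16 genes of amino acid and peptide transport 0 were called, with 14 of 16 above 0 and a median of 0.15. Slc7a8, the basolateral carrier LAT2 for neutral amino acids, was at 163, 127 and 101 CPM with SH045 and at 80.0, 68.7 and 74.5 CPM with Vehicle, without overlap (log2 change 0.76, adjusted p = 0.429, edgeR). Its apical counterpart Slc6a19 (B0AT1) was at 191, 166 and 81.8 CPM with SH045 and at 185, 154 and 107 CPM with Vehicle.

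Of 22 carriers of organic anions, cations and carboxylates 0 were called, with a median log2 change of -0.04, and of 0.25 without Vehicle 1. Slco1a1, an organic anion carrier of the male kidney, was at 3.27, 3.69 and 2.02 CPM with SH045 and at 22.0, 10.5 and 17.0 CPM with Vehicle (log2 change -2.41, adjusted p = 0.0853, edgeR). Abcc4, an efflux pump of the apical membrane, was at 71.3, 42.9 and 61.6 CPM with SH045 and at 23.5, 29.7 and 31.4 CPM with Vehicle (log2 change 1.00, adjusted p = 0.295, edgeR). Slc22a6, the uptake carrier OAT1, was at 112, 136 and 45.5 CPM with SH045 and at 220, 94.3 and 60.1 CPM with Vehicle, which overlapped. Of 18 genes of sodium, acid-base and water transport 0 were called, and the median of the list was 0.08. Their summed level averaged 11826 CPM with SH045 and 13026 CPM with Vehicle, with overlap. An unadjusted p under 0.05 (edgeR) was reached downward by 1 and upward by 0. The smallest adjusted p was that of Fxyd2 (log2 change -0.54, adjusted p = 0.661, edgeR). The bicarbonate carrier Slc4a4 was at 1835, 1378 and 1345 CPM with SH045 and at 1205, 1132 and 1146 CPM with Vehicle, without overlap (adjusted p = 0.703, edgeR).

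Genes of the brush border and of protein uptake gave 0 calls among 28, with a median log2 change of -0.02. Lrp2 was at 915, 806 and 602 CPM with SH045 and at 886, 552 and 490 CPM with Vehicle, and its partner receptor Cubn (cubilin) at 125, 112 and 104 CPM with SH045 and at 133, 98.4 and 71.9 CPM with Vehicle. Both overlapped. Alpl, the tissue-nonspecific alkaline phosphatase found on the brush border, was at 437, 394 and 551 CPM with SH045 and at 183, 258 and 280 CPM with Vehicle, without overlap (log2 change 0.87 ± 0.19, SE; adjusted p = 0.254, edgeR). A UMI of Alpl was present in 74.1%, 74.6% and 78.7% of S1/S2 cells with SH045 and in 43.1%, 70.7% and 50.6% with Vehicle, at unequal depth. Trabd2b, a membrane metalloprotease that acts on Wnt ligands, was at 204, 195 and 261 CPM with SH045 and at 106, 126 and 103 CPM with Vehicle, without overlap (log2 change 0.89, adjusted p = 0.127, edgeR). In Havcr1-positive cells Trabd2b was called (log2 change 1.06, adjusted p = 0.0020, edgeR).

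Genes of glucose production and of the breakdown of small molecules were high in Vehicle 1. Of 17 genes of gluconeogenesis and fructose metabolism 0 were called and 13 lay below 0, with a median log2 change of -0.32, and of -0.06 without Vehicle 1. Fbp1, a gatekeeper enzyme of gluconeogenesis, was at 724, 874 and 557 CPM with SH045 and at 1781, 1037 and 640 CPM with Vehicle. Pck1, which commits carbon to glucose, was at 321, 269 and 137 CPM with SH045 and at 263, 114 and 98.0 CPM with Vehicle. Both overlapped. Of 63 tested genes of amino acid, vitamin and xenobiotic metabolism 0 were called; the median was -0.15, and 0.17 without Vehicle 1. Gc, the vitamin D binding protein, was at 295, 228 and 238 CPM with SH045 and at 83.1, 125 and 209 CPM with Vehicle (log2 change 0.84, adjusted p = 0.649, edgeR).

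Nuclear genes of the respiratory chain lay lower with SH045 almost throughout, each by a small amount. Of 74 genes 72 had a log2 change below 0, where 50.2% of all genes tested did. None was called, 21 had an unadjusted p under 0.05 downward, where 3.94% of all genes did, and 22 lay apart downward, where 5.04% of all genes did. The median log2 change was -0.31, and -0.26 without Vehicle 1. Their summed level was 53992, 63091 and 52123 CPM with SH045 and 69535, 66355 and 63294 CPM with Vehicle, without overlap. Uqcrc1, a core subunit of complex III, was at 313, 380 and 363 CPM with SH045 and at 558, 453 and 481 CPM with Vehicle (log2 change -0.56, adjusted p = 0.628, edgeR), and Ndufv1, the NADH-binding subunit of complex I, at 151, 179 and 171 CPM with SH045 and at 304, 244 and 199 CPM with Vehicle (log2 change -0.65, adjusted p = 0.613, edgeR).

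The genes that mitochondria encode themselves did not share that order. Summed, they were at 114512, 124250 and 98485 CPM with SH045 and at 81752, 116455 and 98568 CPM with Vehicle, and 6 of the 7 tested lay above 0 with a median log2 change of 0.24 (0.07 without Vehicle 1). Log2 changes also moved with transcript length across the 9834 genes with an annotated length (Spearman 0.31; genes are not independent replicates), short transcripts being lower with SH045. With that trend removed, the nuclear respiratory genes had a median of -0.22 and 10 of 74 with an unadjusted p under 0.05. In other classes the summed level of the nuclear list overlapped between the groups. In Havcr1-positive cells it was 46867, 51401 and 44578 CPM with SH045 and 52503, 55481 and 47391 CPM with Vehicle, while 71 of the 74 genes were below 0 with a median log2 change of -0.25, where 48.8% of all genes tested in that class were below 0. In the cells chosen by the S3 genes the sum was 45093, 50238 and 41905 CPM with SH045 and 66243, 49991 and 50702 CPM with Vehicle. In T cells it was 32315, 39866 and 31859 CPM with SH045 and 40260, 37773 and 38753 CPM with Vehicle, with SH045 2 above 2 of the Vehicle libraries.

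**Figure D3:**
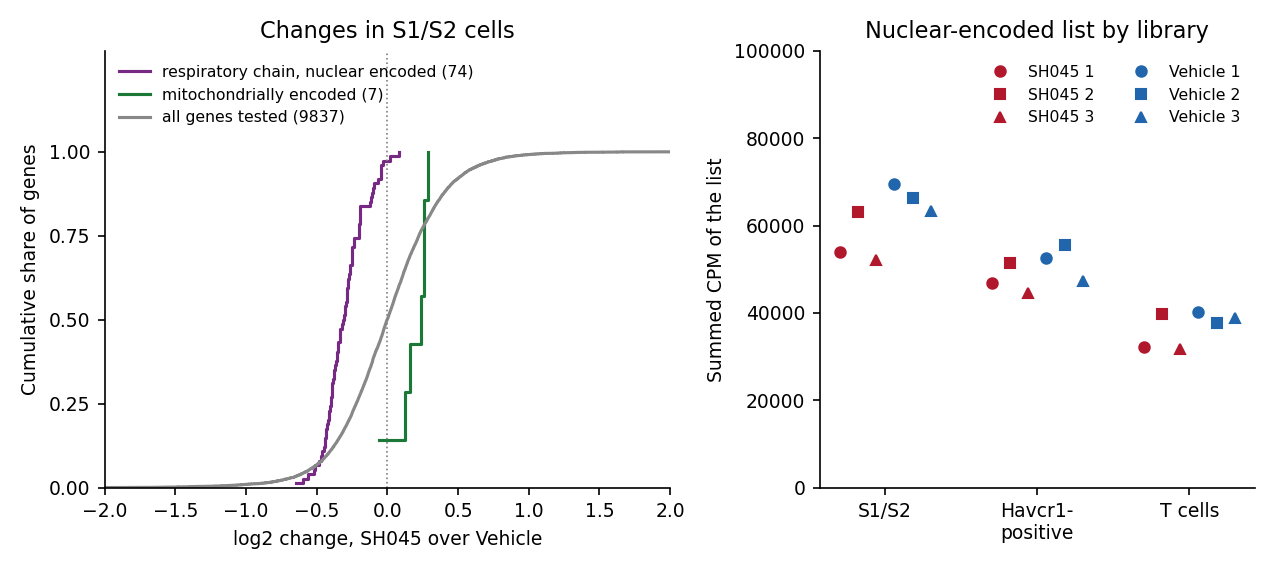
Left, cumulative share of genes by log2 change in S1/S2 cells (SH045 over Vehicle) for 74 nuclear-encoded respiratory chain genes, 7 mitochondrially encoded genes and all 9837 genes tested. Right, summed CPM of the nuclear-encoded list for each library, SH045 in red and Vehicle in blue; the groups are apart in S1/S2 cells and overlap in Havcr1-positive and T cells.

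Of 23 antioxidant and metallothionein genes 0 were called, 7 had an unadjusted p under 0.05 downward, where 3.94% of all genes tested did, and the libraries lay apart downward for 6 and upward for 1, where 5.04% and 8.88% of all genes did. Their median log2 change was -0.24, and -0.05 without Vehicle 1. Hmox1, heme oxygenase 1, was at 29.4, 25.4 and 24.2 CPM with SH045 and at 39.2, 55.9 and 69.3 CPM with Vehicle, without overlap (log2 change -1.07, adjusted p = 0.257, edgeR). Gpx1, which reduces peroxides, was at 5364, 5749 and 6010 CPM with SH045 and at 10222, 8163 and 6190 CPM with Vehicle (adjusted p = 0.649, edgeR), and Gpx3, the secreted form that the proximal tubule makes for plasma, at 39608, 32711 and 33194 CPM with SH045 and at 55470, 41788 and 38460 CPM with Vehicle. Metallothionein Mt1 overlapped, at 172, 170 and 137 CPM with SH045 and 127, 143 and 56.2 CPM with Vehicle.

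No injury gene passed the test. Of 54 tested genes of tubule injury and dedifferentiation 0 were called, 24 lay above 0 and 30 below, and the median log2 change was -0.08 (-0.24 without Vehicle 1). An unadjusted p under 0.05 (edgeR) was reached downward by 5 and upward by 0, where 3.94% and 3.53% of all genes tested did. With the length trend removed 3 reached it downward. Spp1 was at 3760, 2280 and 3386 CPM with SH045 and at 1684, 2661 and 3523 CPM with Vehicle. Vcam1 was at 124, 138 and 202 CPM with SH045 and at 40.3, 134 and 178 CPM with Vehicle, and Krt8, a keratin, at 155, 164 and 211 CPM with SH045 and 117, 198 and 293 CPM with Vehicle. Cdkn1a, the cell cycle inhibitor p21, was at 71.9, 80.8 and 47.5 CPM with SH045 and at 36.1, 87.9 and 271 CPM with Vehicle, where Vehicle 3 was the highest. All 4 overlapped between the groups.

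Shares of S1/S2 cells with a UMI of injury genes were compared at an equal depth of 2000 UMIs per cell, which every S1/S2 cell reached. Spp1 was read in 85.6%, 86.0% and 88.9% with SH045 and 50.6%, 82.2% and 86.0% with Vehicle, against 15.5% to 23.1% in T cells of the 6 libraries. The value of Vehicle 1 lay far below the other 5. Vcam1 was read in 12.7%, 15.6% and 20.4% with SH045 and 3.77%, 14.4% and 19.3% with Vehicle, against 0.350% to 3.98% in T cells. Sox4, a factor of kidney development that returns in injured tubules, was read in 20.5%, 17.8% and 27.2% with SH045 and 6.78%, 23.1% and 22.8% with Vehicle. Krt8 was read in 21.1%, 20.7% and 27.8% with SH045 and 15.9%, 30.1% and 29.8% with Vehicle. Krt18, Lcn2 and Cdkn1a were read in 5.47%, 3.41% and 7.15% of S1/S2 cells on average with SH045 and in 6.44%, 3.87% and 10.3% with Vehicle, and in T cells of the 6 libraries at 1.43% to 4.44% for Krt18, 3.11% to 11.6% for Lcn2 and 3.67% to 8.15% for Cdkn1a. A share within those T cell ranges was not told apart from background. Shares in T cells may also include RNA that T cells make themselves, which was not tested. None of the 8 genes compared passed the exact two-sided permutation test, whose smallest p is 0.1 before adjustment; Cd74 reached it with 74.7%, 84.3% and 81.2% with SH045 and 84.6%, 86.1% and 95.7% with Vehicle (adjusted p = 0.8 over the 8 genes). In T cells Cd74 was at 45.9%, 51.5% and 44.6% with SH045 and at 77.5%, 66.5% and 86.3% with Vehicle, in the same order.

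**Figure D4:**
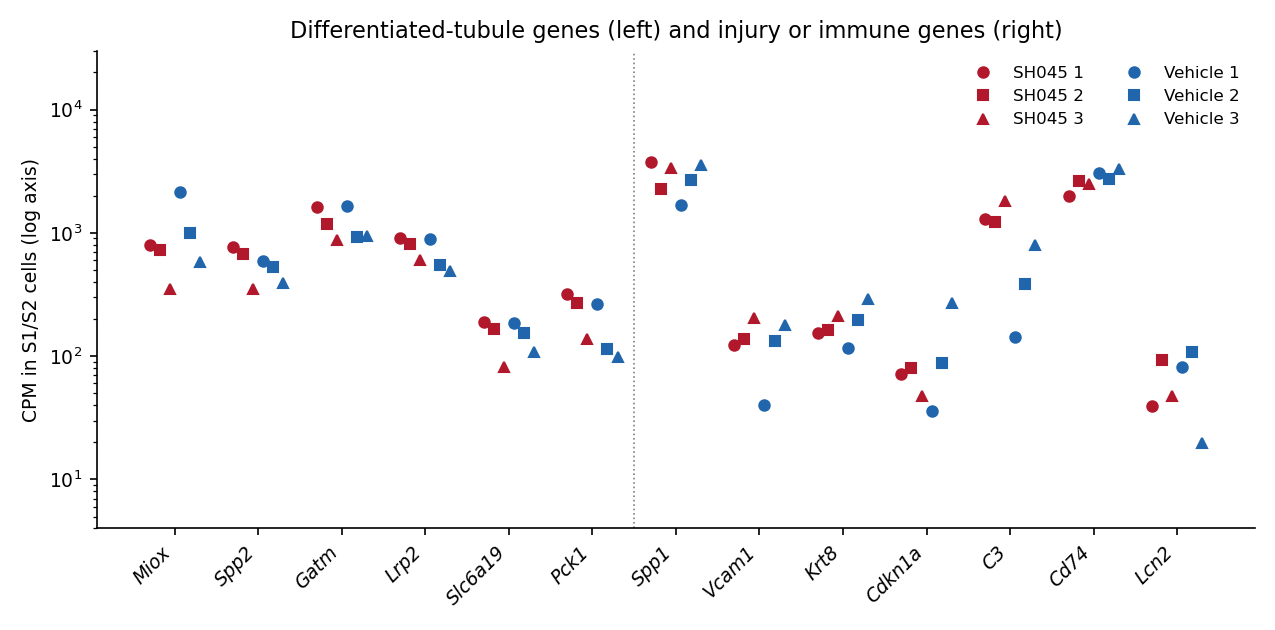
CPM (log axis) in S1/S2 cells of each library for 6 genes of the differentiated tubule (left of the dotted line) and 7 genes of injury or immune function (right), SH045 libraries in red and Vehicle libraries in blue. C3 is higher in all SH045 libraries and Cd74 lower, while the other 11 genes overlap, with Vehicle 1 at an extreme in many of them.

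Complement C3 showed a wide gap that the test did not call. C3, which tubule cells make in inflammation, was at 1283, 1233 and 1798 CPM with SH045 and at 143, 385 and 796 CPM with Vehicle, without overlap (log2 change 1.66 ± 0.61, SE; adjusted p = 0.663, edgeR). It had a UMI in 63.6%, 73.8% and 72.1% of S1/S2 cells with SH045 and in 13.3%, 40.1% and 51.9% with Vehicle, at unequal depth, and no cell held more than 21.5% of the C3 UMIs of its library. In T cells it was at 13.6, 19.0 and 77.1 CPM with SH045 and at 2.59, 15.7 and 2.92 CPM with Vehicle. In Havcr1-positive cells it was at 1939, 1735 and 1763 CPM with SH045 and at 561, 752 and 1196 CPM with Vehicle, also without overlap. Of 10 tested complement and acute phase genes 0 were called and the median log2 change was 0.27.

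Chemokine and antigen presentation genes gave 0 calls among 16 and 35. Cxcl11, an interferon-induced chemokine that draws T cells, was at 29.4, 29.6 and 56.6 CPM with SH045 and at 6.27, 8.73 and 11.8 CPM with Vehicle (log2 change 2.06 ± 0.34, SE; adjusted p = 0.0515, edgeR), and it stood at 1.58 to 5.24 CPM in T cells and, in Havcr1-positive cells, at 152, 175 and 56.6 CPM with SH045 and 46.0, 51.3 and 72.2 CPM with Vehicle. It was read in 9.72%, 10.9% and 17.2% of S1/S2 cells with SH045 and in 1.42%, 4.46% and 6.17% with Vehicle. Ccl2, a monocyte chemokine, overlapped, at 38.7, 5.08 and 19.2 CPM with SH045 and 20.9, 34.9 and 64.0 CPM with Vehicle. Over the 35 antigen presentation and interferon genes the libraries lay apart downward for 6 and upward for 1, where 5.04% and 8.88% of all genes tested did, with a median log2 change of 0.05. The class II genes H2-Aa and H2-Eb1 were among the 6: H2-Aa was at 412, 431 and 430 CPM with SH045 and 553, 495 and 635 CPM with Vehicle (adjusted p = 0.649, edgeR), and H2-Eb1 at 297, 345 and 345 CPM with SH045 and 419, 467 and 534 CPM with Vehicle (log2 change -0.58, adjusted p = 0.566, edgeR). H2-Aa and H2-Eb1 were called in Havcr1-positive cells, also downward (adjusted p = 0.0491 and 0.0161, edgeR). The class I gene H2-K1 overlapped, at 830, 976 and 977 CPM with SH045 and 545, 702 and 916 CPM with Vehicle.

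The channel named in the series title was not read in these cells. Trpc6 had 0 UMIs in all 1216 S1/S2 cells, so that at most 0.247% of such cells would carry one and the level would be at most 0.320 CPM over 9388102 UMIs; both limits cover counting error only. Havcr1-positive cells and T cells also had 0 UMIs. Trpc1 was read, at 20.7, 22.2 and 19.2 CPM with SH045 and at 21.4, 15.7 and 11.8 CPM with Vehicle, which overlapped. Trpc4, Trpc5 and Trpc7 had 0 UMIs as well.

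Genes of collecting duct principal cells differed in direction, with 3 of the 4 tested above 0 and 0 called. Hsd11b2, which inactivates glucocorticoid in the collecting duct and was picked after its values were seen, was at 38.7, 18.9 and 33.3 CPM with SH045 and at 8.36, 1.75 and 2.61 CPM with Vehicle (log2 change 2.58, adjusted p = 0.0859, edgeR). A single cell held 43 of 71, 17 of 41 and 16 of 33 of its UMIs in the SH045 libraries. In T cells Hsd11b2 was at 76.6, 106 and 50.9 CPM with SH045 and at 2.59, 1.75 and 19.5 CPM with Vehicle. Fxyd4, a regulator of the sodium pump from the same marker list, was at 59.3, 69.7 and 51.5 CPM with SH045 and at 90.4, 78.6 and 68.0 CPM with Vehicle, with overlap (log2 change -0.45, adjusted p = 0.664, edgeR). The summed level of the list was 106 to 178 CPM with SH045 and 75.8 to 118 CPM with Vehicle, which overlapped. The transcription factors of the proximal tubule gave 0 calls among 28, with a median log2 change of 0.01: Hnf4a was at 226, 218 and 260 CPM with SH045 and at 250, 176 and 141 CPM with Vehicle, with overlap.

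S1/S2 cells were next set beside the 1312 Havcr1-positive cells of the same libraries (213, 176 and 218 with SH045 and 196, 333 and 176 with Vehicle), which hold at least 2 Havcr1 UMIs. Since the rule kept Havcr1 low in the one class and high in the other, these values describe the classes and carry no test. Of 1908 genes with a mean of at least 100 CPM in either class, 1200 had the same direction in 6 of 6 libraries, 390 higher in S1/S2 cells and 810 lower. Among the 9604 genes tested in both classes, 8.63% were higher in S1/S2 cells in 6 of 6 libraries and 27.5% lower. Havcr1-positive cells held more RNA, at a median of 7826.5 UMIs over the class beside 5581.5 in S1/S2 cells, and less mitochondrial RNA, at a median of 5.43% beside 10.6%.

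Higher in S1/S2 cells stood enzymes and carriers of the working tubule. Spp2 was at 351 to 764 CPM in S1/S2 cells (median 561) and at 5.84 to 110 CPM (median 74.1) in Havcr1-positive cells, a mean log2 ratio of 3.49 ± 1.27 (SD over 6 libraries, CPM + 1). Cyp2d26, a cytochrome P450, had a ratio of 3.19 ± 1.00. Gatm, which makes the precursor of creatine, was at 879 to 1648 CPM in S1/S2 cells and at 79.1 to 260 CPM in Havcr1-positive cells (log2 ratio 2.95 ± 0.65). Acmsd, an enzyme of tryptophan breakdown, had a log2 ratio of 2.70, and Slc6a19 one of 2.58.

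Lower in S1/S2 cells stood injury, keratin and protease genes. Spp1 was at 1684 to 3760 CPM in S1/S2 cells and at 11948 to 18924 CPM in Havcr1-positive cells (log2 ratio -2.31 ± 0.42, SD over 6 libraries). Vcam1 was at 40.3 to 202 CPM in S1/S2 cells and at 683 to 1303 CPM in Havcr1-positive cells (log2 ratio -2.93 ± 0.64). Krt20, a keratin, was at 0 to 6.53 CPM in S1/S2 cells and at 81.0 to 209.7 CPM in Havcr1-positive cells, and Plat, tissue plasminogen activator, at 0.523 to 14.6 CPM in S1/S2 cells and 133 to 236 CPM in Havcr1-positive cells. Cd44, a hyaluronan receptor, was at 2.77 to 11.4 CPM in S1/S2 cells and at 79.5 to 214 CPM in Havcr1-positive cells, and Hspb1, a small heat shock protein, at 14.6 to 84.9 CPM in S1/S2 cells and 573 to 975 CPM in Havcr1-positive cells. Il1f6, a cytokine of the interleukin 1 family, was at 1.01 to 6.00 CPM in 5 libraries of S1/S2 cells and at 196 CPM in Vehicle 2, where a single cell held 331 of its 336 UMIs. Umod, a gene of the thick ascending limb, was also lower, at 3.03 to 161 CPM in S1/S2 cells and 197 to 902 CPM in Havcr1-positive cells, and 529 of the 1312 Havcr1-positive cells reached the carrier sum.

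**Figure D5:**
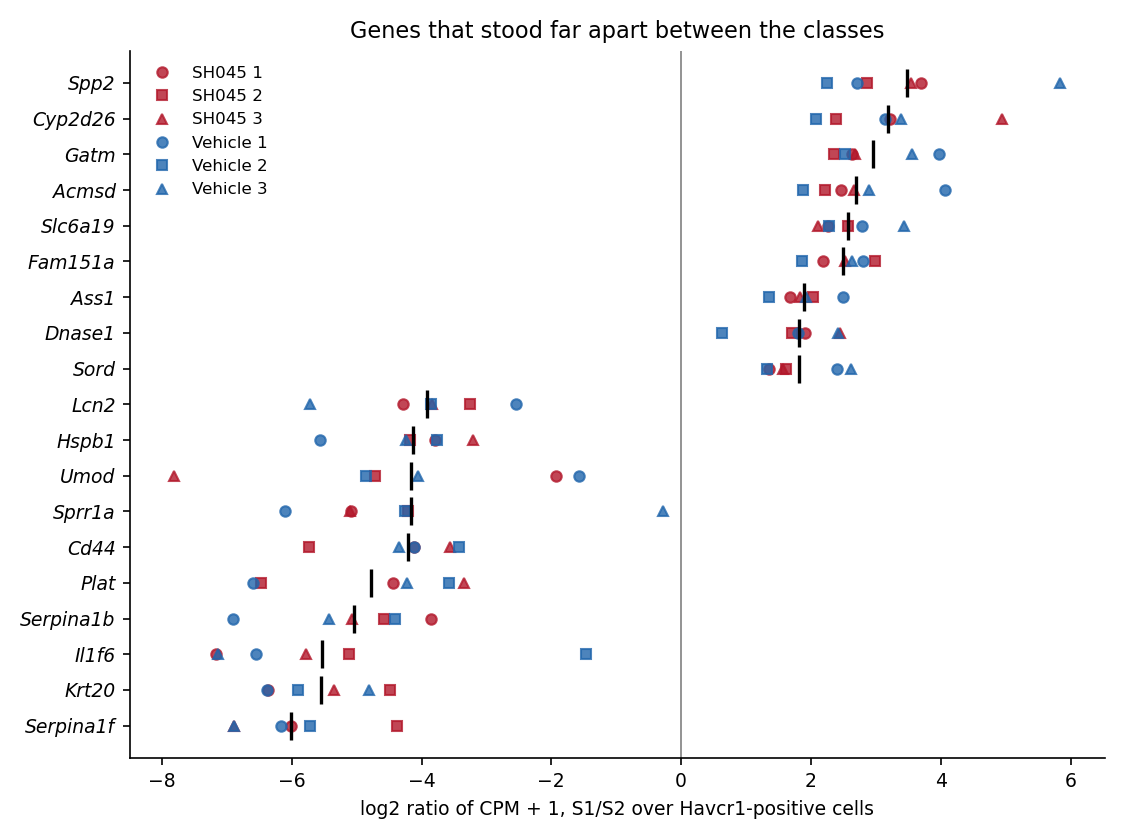
Log2 ratio of CPM + 1 in S1/S2 over Havcr1-positive cells for genes far apart in each direction (9 higher and 10 lower in S1/S2 cells), by library (SH045 in red, Vehicle in blue) with the mean as a black bar. All 6 libraries lie on the same side of 0 for each gene, from Spp2 at a mean of 3.49 to Serpina1f at a mean of -6.01.

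By function, and beside 8.63% of all 9604 genes that were higher and 27.5% that were lower in 6 of 6 libraries, S1/S2 cells were higher in 6 of 6 libraries for 36 of 61 genes of amino acid, vitamin and xenobiotic metabolism and lower for 2, for 12 of 17 gluconeogenesis genes and lower for 2, for 10 of 16 amino acid carriers and lower for 3, and for 62 of 74 nuclear respiratory chain genes and lower for 1. Other lists of the tubule were mixed: 5 higher and 5 lower of 12 genes of glucose and phosphate transport, 6 higher and 6 lower of 28 transcription factors, and 6 higher and 9 lower of 23 antioxidant and metallothionein genes. S1/S2 cells were lower in 6 of 6 libraries for 41 of 54 injury genes, for 22 of 26 immediate early and heat shock genes, for 11 of 15 chemokines and cytokines and for 42 of 51 ribosomal protein genes. Levels also differed by the number of Havcr1 UMIs. Pooled Gatm was at 1357 CPM in S1/S2 cells with no Havcr1 UMI, at 699 CPM in those with 1 and at 285 CPM in Havcr1-positive cells that reached the carrier sum. Vcam1 was at 108, 223 and 644 CPM in the same order, and Spp1 at 2579, 3663 and 7115 CPM. Not all genes of the tubule fell or all injury genes rose at each step. Kap rose, at 2382, 2737 and 4486 CPM, and Lcn2 was at 64.3, 121 and 110 CPM. These steps follow the gene that made them and carry no test.

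The effect of SH045 was compared between S1/S2 and Havcr1-positive cells in a single model. In Havcr1-positive cells 27 of 10543 genes were called (0.256%), 6 higher (0.0569%) and 21 lower (0.199%). Of these, 23 were tested in S1/S2 cells and 0 were called there. No difference between the classes was shown for any of the 27, whose smallest adjusted interaction p was 0.545. Over all 11030 genes the interaction called 1 (0.00907%), with 542 (4.91%) at an unadjusted p under 0.05.

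That gene was Saa3, an acute phase protein. It had 19, 14 and 0 UMIs in S1/S2 cells with SH045 and 0 in all Vehicle libraries. The pooled ratio was at least 9.69 with the Vehicle group set to 3 UMIs. That bound covers counting error in the Vehicle group only and leaves out the spread between cells and libraries. In Havcr1-positive cells it was at 4.71, 1.69 and 0.519 CPM with SH045 and at 52.3, 0.240 and 4.25 CPM with Vehicle. The difference of the log2 changes was 9.91 ± 1.37 (SE; adjusted p = 0.0140, edgeR). It rests on few cells: the 33 UMIs in S1/S2 cells came from 4 cells of SH045 1 and 5 of SH045 2, 1 of which held 12 of the 19. Without Vehicle 1 the difference was 6.06 with an adjusted p of 0.997, without SH045 1 and without SH045 2 the adjusted p was 0.179 and 0.0554, and DESeq2 did not call it (adjusted p = 0.0927). The immunoglobulin gene Iglv1 followed with an adjusted interaction p of 0.0587 (edgeR). Mdk, the growth factor midkine, was at 241, 320 and 276 CPM in S1/S2 cells with SH045 and 232, 150 and 102 CPM with Vehicle, beside 184, 198 and 167 CPM with SH045 and 236, 178 and 141 CPM with Vehicle in Havcr1-positive cells (interaction adjusted p = 0.141, edgeR).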

How the data were processed

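Single-cell libraries were made with a Singleron GEXSCOPE kit per the labels' protocols, and reads were placed on mm10 per the submitters' processing notes. How reads were aligned and counted, with which annotation, and how cells were called is not given in the sources used here. All deposited values are raw UMI counts per gene and barcode, with no normalization by the authors. Members, gene lists and tests were chosen with earlier results of these data known.

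UMI counts were summed per library and class, filtered for low counts with filterByExpr, scaled by TMM and tested with edgeR 4.0.16 (quasi-likelihood, robust; R 4.3.3), with Benjamini-Hochberg adjustment over all genes tested; DESeq2 1.42.0 was the other tool. The interaction was fitted over both classes of the 6 libraries. CPM values are plain shares of the class's UMIs. Single values were compared by exact two-sided permutation (scipy 1.17.1). Each library is 1 sample, so p-values measure the spread between 3 libraries per group; intervals and limits from 0 counts cover counting error only. Shares at equal depth are expected values after thinning to 2000 UMIs. Scrublet was run through scanpy 1.11.5. The length trend was a natural spline with 5 degrees of freedom. The edgeR steps were tested on simulated counts: of 100 genes each, 89 changed 4-fold and 37 changed 2-fold were recovered in S1/S2 cells (9845 genes) with 11 unchanged genes called, 95 and 59 in Havcr1-positive cells (10552 genes) with 12, and 77 and 30 for the interaction (11039 genes) with 13.

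Genes named were the 9 genes of the rule, a set of fixed markers, called genes, the 3 smallest unadjusted p and 2 highest CPM of each list, the 10 highest and 10 lowest ratios between classes, and the smallest interaction p; others are said to have been picked after their values were seen. Some genes that these rules name are not reported here. Log2 changes are printed mainly for genes with an unadjusted p under 0.01. Counts per single cell and the wider set of T cells were added after the data were seen. Symbols Nherf1, Nherf3 and Trpc2 were not matched; Areg and Hacl1 are written with other symbols in the files and were matched by ID. Alternatives changed the normalization, the filter, the tool, the replicate block, the length trend, the limits of the rule, doublets and single libraries. Contralateral kidneys and spatial samples named in the series' design are not analysed here.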

Additional observations from a re-analysis of the deposited data

Results flagged for a closer look

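The effect of SH045 on Saa3 differed between S1/S2 and Havcr1-positive cells by 9.91 on the log2 scale, which passed the interaction test. The SH045 libraries held 33 UMIs in 9 S1/S2 cells and the Vehicle libraries 0. Among Havcr1-positive cells Vehicle 1 stood at 52.3 CPM and the other 5 libraries at 0.240 to 4.71 CPM, and without Vehicle 1 the interaction had an adjusted p of 0.997 (edgeR).

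Barcodes with the carrier sum but more than 50% mitochondrial UMIs are outside the class described. They made up 19.3% of all barcodes with the carrier sum on average with SH045, above each of the Vehicle libraries (3.29%, 14.9% and 15.5%). The part of these barcodes in the results on S1/S2 cells was not tested beyond the 20% limit and the share with no limit.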

How the results depend on the processing

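Counts of called genes moved with nearly every setting. In S1/S2 cells the count of 2 became 14 with DESeq2, 60 without the low-count filter, 5 without the highest Scrublet scores, 1 with at least 6 carrier UMIs, 7 with S3 genes at 0, 0 with C1q genes at 0, 8 with Havcr1 at 0, 4 with barcode sequences of 1 library alone (an alternative chosen after seeing the data), and 0 to 15 with 1 library left out. DESeq2 size factors and the length trend gave 2 each, and a 20% mitochondrial limit 3. The 27 genes of Havcr1-positive cells became 111 with DESeq2, 435 without the filter and 4 to 102 with 1 library left out. The interaction's count of 1 became 0 with DESeq2, which had 145 genes at an unadjusted p under 0.05, 31 without the filter and 0 to 4 with 1 library left out.

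With the replicate number as a block, 20 genes were called in S1/S2 cells (8 higher, 12 lower) and 101 in Havcr1-positive cells (26 higher, 75 lower). Deviations from the group mean in S1/S2 cells correlated at r = 0.0069, -0.038 and 0.15 between same-numbered libraries. Between libraries of unlike number r ran from -0.16 to 0.17. Deviations of 3 libraries per group are tied to each other, so these values cannot decide whether the numbers pair the libraries.

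The share of S1/S2 cells turned round with tubule-marker barcodes as the denominator (log2 ratio -0.052) and ran over -0.10 to 1.01 with 1 library left out. Differences in injury shares, in percentage points, turned round for Krt8 with C1q genes at 0 (0.301). With 1 library left out they ran from -0.584 (without Vehicle 1) to 7.18 for Vcam1, -6.69 to 0.400 (without Vehicle 2; 0.244 without Vehicle 3) for Krt8, -2.15 to 0.138 (without Vehicle 3) for Krt18, -1.01 to 0.620 (without Vehicle 2) for Lcn2, -5.99 to 0.466 (without Vehicle 3) for Cdkn1a and -1.18 (without Vehicle 1) to 7.0 for Sox4. The cause was not tested.

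For the 32 genes with a log2 change, most of them picked for a small p, 553 alternatives gave 0 changes of sign, 75 that newly passed the threshold and 10 that no longer did. Depth is the limit for genes of few UMIs: 0 UMIs over all S1/S2 cells allow up to 0.320 CPM.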

Other observations

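Further gene groups in S1/S2 cells held 0 calls between SH045 and Vehicle. Genes of TGF-beta, Wnt and matrix had a median log2 change of 0.36 over 18 tested genes (13 above 0), and 0.10 without Vehicle 1. Genes of glycolysis and hypoxia had a median of -0.14 over 23, and p53 targets and cell cycle genes -0.14 over 25. Immediate early and heat shock genes had a median of 0.10 over 26, and -0.08 without Vehicle 1. Cytosolic ribosomal protein genes had one of 0.03 over 51, and -0.08 without Vehicle 1. Markers of the S3 segment had a median of 0.03 over 14, and sex-linked and androgen-regulated genes 0.12 over 12, with 0.54 without Vehicle 1.

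Nupr1, a stress-induced chromatin factor picked after its values were seen, was at 17.4, 12.0 and 4.04 CPM with SH045 and at 27.7, 46.0 and 37.9 CPM with Vehicle, without overlap (log2 change -1.68, adjusted p = 0.257, edgeR).

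Marker genes of the remaining cell types were read in S1/S2 cells at levels that differed by list, with the thin limb genes highest among those given here. The thin limb list includes Aqp1, a water channel also of the proximal tubule, so its sum need not come from other cells. Granulocyte genes summed to 54.0 to 78.8 CPM with SH045 and 7.57 to 43.1 CPM with Vehicle, fibroblast and pericyte genes to 18.2 to 70.6 CPM with SH045 and 2.61 to 11.8 CPM with Vehicle, and both lay apart. Principal cell genes of the collecting duct summed to 106 to 178 CPM with SH045 and 75.8 to 118 CPM with Vehicle, thin limb genes to 464 to 855 CPM with SH045 and 334 to 1154 CPM with Vehicle, and urothelial genes to 0 to 7.39 CPM with SH045 and 0 to 52.3 CPM with Vehicle. Endothelial, podocyte, distal convoluted tubule and intercalated cell genes stayed under 215 CPM in every library and overlapped.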
